A study of Mus musculus with 8 samples.

Results

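The transcriptional response to IL-10 was described in macrophages that carried the Ptpn1-/- genotype, by setting the expression value of each gene in the IL-10 group beside its value in the mock group of the same genotype. The macrophages came from the peritoneum of C57BL/6 mice after thioglycolate, an irritant that draws monocyte-derived cells into that cavity, and had adhered to plastic for 24 h. The 4 groups were Ptpn1-/- mock, Ptpn1-/- with IL-10, wild-type mock and wild-type with IL-10, each of 2 samples, and IL-10 was given at 100 ng/ml for 4 h. The labels do not say which part of Ptpn1 was removed, whether a sample came from 1 mouse or from a pool, or whether the 2 samples of a group came from different mice.

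The deposited table lists 11996 genes with 1 value per group, so the spread between the samples of a group cannot be seen and no difference below has a test, an error or a replicate check. Each column sums to 26705598 units. Of the 11996 genes, 11400 had a mean over the 4 groups of at least 26.7 units, which is 1 ppm of a column's total, and were kept. The measure used is the log2 ratio of the IL-10 value to the mock value after 26.7 units were added to both, so that the ratio of a weakly expressed gene is drawn toward 0. A gene is called higher or lower where this ratio reached 2-fold in either direction, and that limit describes size only. The depth behind the values is unknown, since no read counts were used here.

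IL-10 is a cytokine that restrains inflammatory activation of macrophages. It binds a receptor made of IL10RA and IL10RB, to which the kinases JAK1 and TYK2 are attached, and these phosphorylate STAT3, which dimerizes, enters the nucleus and induces both effector genes and the feedback inhibitor SOCS3. PTP1B, the protein made from Ptpn1, is a tyrosine phosphatase of the endoplasmic reticulum that removes phosphate from receptor tyrosine kinases and from JAK2 and TYK2. The comparison asks what IL-10 does to gene expression in macrophages that lack this phosphatase.

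Ptpn1 itself was listed at 3836.5 units in the knockout under mock and 5391.5 with IL-10, against 4960.5 and 6736 units in the wild type. The 2 knockout values lay below the wild-type value of the same treatment, but neither was near 0, so the gene's signal over its whole length (mm9 chr2:167757872-167804885) is a weak check of the genotype. Without the position of the deletion, residual signal from the rest of the gene cannot be told apart from an intact transcript. Macrophage genes were strongly expressed in the knockout. Cd68 was listed at 272612 units in both treatments, Csf1r (the M-CSF receptor) at 14662 and 13685 units, and Emr1 (F4/80) at 11367 and 10088.5 units.

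Genes that mark other cells of the cavity ranged from weak to strong. In the knockout the 3 listed B cell markers summed to 119.5 units in the mock group and 122.5 in the IL-10 group, and the 3 listed neutrophil markers to 181 and 202 units. The 5 monocyte markers summed to 2249.5 and 2892 units, all 5 with a log2 ratio above 0. The 9 mesothelial and fibroblast markers summed to 23735.5 and 25482 units, 6 of them above 0. Of these 9, Pdpn had 5367 and 7324 units, a wider difference than that of the sum, so the rise in the sum rests on this gene. Col1a2, a fibroblast collagen gene, alone held 10235 and 9447 units, close to the level of Emr1. Of the 7 T and NK cell markers, Cd5 and Lck could be read, with a sum of 41 and 156 units, and the latter is described below. The part of these small shifts in the results was not tested. In a bulk sample, fewer cells of a type and less RNA per cell cannot be told apart.

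The response was narrow and lay mostly in one direction. In the knockout the IL-10 value exceeded the mock value by 2-fold or more for 100 of 11400 genes (0.877%) and lay under it by as much for 2 (0.0175%). Of the higher genes, 16 passed 4-fold (0.14% of all genes) and 4 passed 8-fold (0.0351%). At a limit of 1.5-fold the counts were 264 higher (2.32%) and 92 lower (0.807%), and the remaining 11044 genes (96.9%) lay within 1.5-fold. The median log2 ratio was -0.02, and 95% of genes lay between -0.40 and 0.56. Of the 11400 genes, 5158 lay above 0, 6134 below 0 and 108 at 0. The upper arm of the distribution was the longer one: the highest ratio was 3.79 and the lowest -1.46.

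Strongly and weakly expressed genes both contributed. Among genes with a mean under 134 units, 27 of 1966 passed the upper limit, beside 37 of 5028 genes up to 1000 units, 29 of 3559 up to 5000 units, 4 of 701 up to 20000 units and 3 of the 146 above that. The limit itself fell among genes of similar ratio. Just inside it lay Ust (1.03), Irgm1 (1.03) and 9030418K01Rik (1.03), and just outside it Tmem173 (0.97), Gbp9 (0.99) and Hrh2 (0.99). At the filter, D930049A15Rik and Cables1 were kept with a mean of 26.8 units, while Lrp3 and Pkp2 were dropped with 26.6 units.

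**Figure D1:**
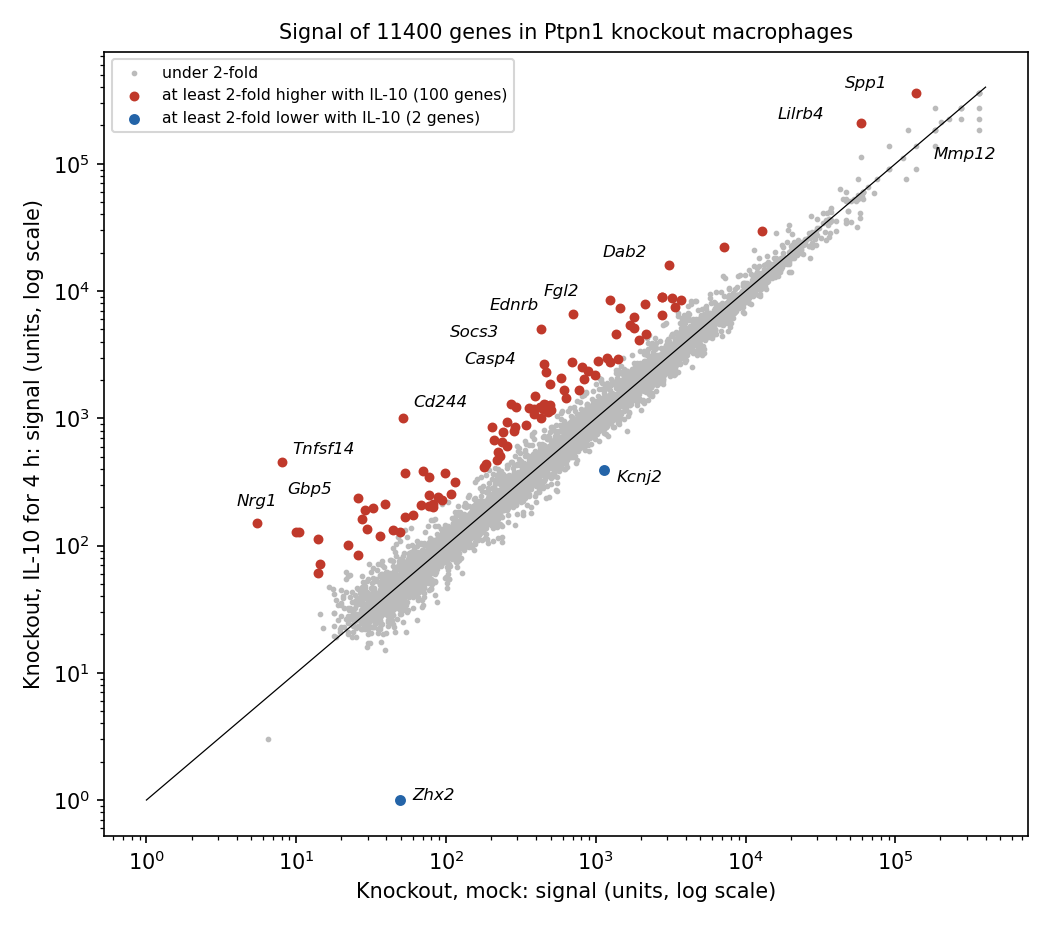
Signal of each of 11400 genes in Ptpn1 knockout macrophages under mock (x axis) and with IL-10 (y axis), both in the authors' units on a log scale, 1 point per gene, with the line of equal values. The 100 genes at least 2-fold higher with IL-10 (red) sit above the line over nearly the whole range of signal, from Nrg1 at 5.5 units under mock to Spp1 at 137379, whereas only Kcnj2 and Zhx2 (blue) pass the limit below it, and the regular steps at the upper right are shared values among the most abundant genes.

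The 5 highest ratios belonged to a TNF ligand, a receptor of the SLAM family, a feedback inhibitor, an endothelin receptor and a secreted fibrinogen-like protein. Tnfsf14 (LIGHT, a ligand of the lymphotoxin beta receptor and of HVEM; chr17:57328915-57333612) was listed at 8 units in the mock group and 453.5 in the IL-10 group, so that its log2 ratio was 3.79. Cd244 (2B4, a receptor for CD48; chr1:173489324-173515449) was listed at 51.5 and 1014 units (3.73), and Socs3 (chr11:117827393-117830500) at 432 and 5021 units (3.46). These are mm9 positions, as in the deposited table. All 3 mock values were at or below 432 units. Ednrb (the endothelin B receptor; chr14:104213842-104243390) was listed at 700 and 6577 units (3.18), and Fgl2 (a secreted protein that binds the inhibitory Fc receptor; chr5:20878460-20884192) at 1240.5 and 8437.5 units (2.74). In the wild type all 5 were also far higher with IL-10, with ratios of 2.85 for Tnfsf14, 3.78 for Cd244, 3.28 for Socs3, 3.17 for Ednrb and 2.49 for Fgl2.

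Promoter sequence was set beside the response for the 77 of the 100 higher genes that matched an entry of RefSeq's mouse annotation (GRCm38.p6), as 250 bases up to the annotated start. A gene was counted where any of its promoters held a pattern, so shares of genes and of single promoters are unlike measures. The palindrome TTCNNNGAA, the core of sites that bind STAT dimers, was present in 14 of the 77 genes (18.2%). The share was 7.15% of the 9088 matched genes that were kept and 7.02% of all 32851 single promoters, which belong to 27025 genes. GAAANNGAAA, read on both strands, is the core of the element bound by the interferon-activated complex ISGF3 and by IRF proteins. It was present in 16 of the 77 genes (20.8%), beside 3.26% of kept genes and 2.98% of all single promoters. The 2 patterns share the letters GAA and can overlap, and 4 of the 77 genes were counted for both.

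Both patterns were commoner in the promoters of higher genes than among kept genes at large, a description with no test. Among the 48 matched genes of the interferon lists the shares were 29.2% for the STAT pattern and 43.8% for the interferon pattern. Among the 67 matched higher genes off those lists they were 14.9% and 13.4%. The interferon pattern was in 13 of the 37 matched genes that passed 2-fold in the knockout only (35.1%) and in 3 of the 40 that passed in both genotypes (7.5%). The STAT pattern was in 8 of those 37 (21.6%) and 6 of those 40 (15%). In the 66 matched genes at least 1.5-fold lower in the knockout, the shares were 9.09% for the STAT pattern and 1.52% for the interferon pattern.

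The sequences below show, for each pattern, the 3 genes with the highest knockout ratio among those whose promoter held it, a choice made after their values were seen. They are written 5′ to 3′ on the strand of the gene, with the matched letters in capitals, and their coordinates are GRCm38.p6 and not the mm9 of the deposited table. The first 3 hold the STAT pattern. Socs3 (chr11:117969367-117969616, minus strand) has TTCTTAGAA from 154 to 146 bases before the start, Fgl2 (chr5:21372423-21372672, plus strand) has TTCTGGGAA from 36 to 28 bases before it, and Dab2 (chr15:6299539-6299788, plus strand) has TTCTTAGAA from 72 to 64 bases before it.
Socs3: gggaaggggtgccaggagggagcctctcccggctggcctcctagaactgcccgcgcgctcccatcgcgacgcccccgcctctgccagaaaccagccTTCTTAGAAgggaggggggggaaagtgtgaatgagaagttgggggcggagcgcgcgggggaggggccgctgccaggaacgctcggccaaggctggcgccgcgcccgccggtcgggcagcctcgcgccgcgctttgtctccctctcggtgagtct
Fgl2: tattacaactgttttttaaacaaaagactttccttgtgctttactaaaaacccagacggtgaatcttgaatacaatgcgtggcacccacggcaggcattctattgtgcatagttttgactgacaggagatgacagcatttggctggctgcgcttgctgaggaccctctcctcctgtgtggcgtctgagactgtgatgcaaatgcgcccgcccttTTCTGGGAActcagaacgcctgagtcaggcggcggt
Dab2: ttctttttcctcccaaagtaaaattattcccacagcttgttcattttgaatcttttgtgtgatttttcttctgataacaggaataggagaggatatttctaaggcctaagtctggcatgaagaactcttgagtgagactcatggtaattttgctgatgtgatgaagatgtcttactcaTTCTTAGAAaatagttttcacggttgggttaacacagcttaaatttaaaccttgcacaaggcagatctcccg

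The other 3 hold the interferon pattern, which reads as its reverse complement where it lies on the opposite strand. Gbp5 (chr3:142496684-142496933, plus strand) has TTTCAATTTC from 165 to 156 bases before the start, and Gbp3 (chr3:142559794-142560043, plus strand) has 2 overlapping matches from 45 to 30 bases before it. I830077J02Rik (chr3:105932665-105932914, minus strand) has GAAAAGGAAA from 112 to 103 bases before it. Gbp5 was also counted for the STAT pattern, whose letters are not marked in its sequence.
Gbp5: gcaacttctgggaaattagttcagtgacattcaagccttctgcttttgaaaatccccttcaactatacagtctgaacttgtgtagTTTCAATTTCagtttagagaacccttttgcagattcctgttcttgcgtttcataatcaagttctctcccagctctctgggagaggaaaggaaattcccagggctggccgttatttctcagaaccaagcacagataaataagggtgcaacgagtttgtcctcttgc
Gbp3: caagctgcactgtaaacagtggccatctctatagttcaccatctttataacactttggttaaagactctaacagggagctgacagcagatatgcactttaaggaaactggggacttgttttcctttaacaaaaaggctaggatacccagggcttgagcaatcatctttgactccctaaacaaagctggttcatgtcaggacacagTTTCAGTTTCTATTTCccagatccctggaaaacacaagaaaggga
I830077J02Rik: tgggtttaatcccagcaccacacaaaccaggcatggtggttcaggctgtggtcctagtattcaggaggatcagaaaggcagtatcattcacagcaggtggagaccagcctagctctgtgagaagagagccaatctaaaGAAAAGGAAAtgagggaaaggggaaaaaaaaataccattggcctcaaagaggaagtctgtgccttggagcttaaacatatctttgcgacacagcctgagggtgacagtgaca

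The receptor and its kinases were little altered in level, while Stat3 and the feedback inhibitors Socs3 and Socs2 were higher. Of the 27 kept genes of the IL-10 receptor, JAK-STAT and feedback list, 3 were at least 2-fold higher, beside 0.877% over all genes, and none was 2-fold lower. The list's median log2 ratio was 0.19 and 18 of the 27 lay above 0. Il10ra was listed at 2095.5 units in the mock group and 1803 in the IL-10 group (log2 ratio -0.21), and Il10rb at 7257.5 and 6861 units (-0.08). Tyk2 was listed at 1386 and 1245.5 units (-0.15), and Jak1 at 10928.5 and 13620.5 units (0.32). No receptor chain or receptor-bound kinase of this cytokine therefore differed by 1.5-fold.

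Jak2 and Jak3, which serve other cytokine receptors, stood higher. Jak2 was listed at 1360.5 and 1952.5 units (0.51) and Jak3 at 676 and 1206.5 units (0.81). Among the STATs given here the ordering ran from Stat3 at 3678 and 8460 units (1.20), through Stat2 at 832.5 and 1511 units (0.84), to Stat6 at 4446.5 and 4134 units (-0.10). Stat5a had a ratio of 0.16, Stat5b of -0.06 and Stat4 of -0.08. Of those given here, the STAT that IL-10 activates stood highest.

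The SOCS family, inhibitors that act at JAKs and cytokine receptors, was split. Socs3 stood at 3.46 and Socs2, which restrains growth hormone signalling, was listed at 77.5 and 204 units (1.15). Cish had 28 and 52 units (0.52) and Socs1, the main inhibitor of interferon-gamma signalling, 80 and 107.5 units (0.33). Socs6 (0.19), Socs5 (0.08), Socs7 (0.03) and Socs4 (-0.01) had smaller ratios. Ptpn2, the closest relative of Ptpn1 and also a JAK-STAT phosphatase, was listed at 659 and 914 units (0.46), Ptpn6 (SHP-1) had a ratio of 0.21 and Ptpn11 (SHP-2) one of -0.07. Pias3, an inhibitor of STAT3, was listed at 573.5 and 461 units (-0.30), the lowest of the list, while Pias1 had a ratio of 0.01.

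Genes listed here as following IL-10 and STAT3 mostly had ratios above 0, and some passed 2-fold. The list was compiled with earlier results of these data known, so it is no independent evidence of a direction. Of 32 listed and kept, 9 were at least 2-fold higher, beside 0.877% of all genes, and 30 lay above 0. The median was 0.68 in the knockout and 0.57 in the wild type, where 8 passed. Il4ra (the shared receptor chain for IL-4 and IL-13; chr7:132695796-132722986) was listed at 2126 units in the mock group and 7868.5 in the IL-10 group (1.87). Bcl3 (a nuclear IkB protein that holds back NF-kB target genes) had 803.5 and 2537 units (1.63), and Arid5a (an RNA-binding protein that protects cytokine transcripts) 611.5 and 1655.5 units (1.40). Tnip3, which restrains NF-kB upstream, had 630.5 and 1432.5 units (1.15).

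Several members fell short of 2-fold with sizeable ratios. Nfil3, a repressor of Il12b, was listed at 388.5 and 779.5 units (0.96), Sbno2, a co-repressor, at 2942 and 5597.5 units (0.92), and Batf at 305.5 and 589 units (0.89). Hmox1 (heme oxygenase) had 15911 and 28464.5 units (0.84) and Zfp36 (tristetraprolin, which speeds decay of cytokine mRNA) 4108 and 6761 units (0.72). Etv3, another repressor, had 1427.5 and 1964.5 units (0.45) and Il1rn, the IL-1 receptor antagonist, 11271.5 and 12886 units (0.19). Tnfrsf1b, a TNF receptor, was at the bottom with 15784 and 12890 units (-0.29).

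The wider group of 24 repressors and mRNA-decay factors held 2 genes past 2-fold, beside 0.877% of all genes. These were the Bcl3 and Arid5a just given, and the median was 0.14. Klf2, a factor that quietens myeloid cells, was listed at 349.5 and 257.5 units (-0.40). Among 20 NF-kB subunits and regulators the 2 past 2-fold were Bcl3 and Tnip3, and the median was 0.06. Tnfaip3 (A20, an inhibitor of NF-kB) was listed at 1658.5 and 1128 units (-0.55), Nfkbid at 675.5 and 496.5 units (-0.42), Rela at 2966 and 3544.5 units (0.25) and Nfkb1 at 2327 and 2358 units (0.02). The NF-kB list therefore had its 2 high members beside subunits that were level.

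Cytokine receptor chains come first among the cell-surface receptors. Among 20 kept type I cytokine receptor chains, 3 were at least 2-fold higher, beside 0.877% of all genes. They were Il4ra, its partner Il13ra1 with 1365.5 and 4575.5 units (1.72), and Il21r with 240.5 and 785 units (1.60). The 17 others lay between -0.22 for Il11ra1 and 0.92 for Il15ra, and the list's median was 0.15. Il6st (gp130, the signalling chain for IL-6) was listed at 4152 and 6248 units (0.59), whereas Il6ra had 1458 and 1328 units (-0.13). Csf2ra (0.06), Csf2rb (0.16) and Il2rg (-0.05) were level. Both chains of the type 2 IL-4 receptor were thus higher, and the common gamma chain of the type 1 receptor was not.

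Of 28 kept G protein-coupled receptors outside the chemokine receptors, 5 were at least 2-fold higher, beside 0.877% of all genes. Of the 28, 17 lay above 0, beside 5158 of all 11400 kept genes. After Ednrb came Adora3 (the adenosine A3 receptor), listed at 53 units in the mock group and 374 in the IL-10 group (2.33), and Niacr1 (the receptor for nicotinic acid and hydroxybutyrate), at 10.5 and 128.5 units (2.06). P2ry13, an ADP receptor, had 29 and 190.5 units (1.96), and Ltb4r1, a leukotriene B4 receptor, 82.5 and 199 units (1.05). All 5 but Ednrb were weak under mock. In the same list Gpr183 (EBI2, an oxysterol receptor) was listed at 483.5 and 240 units (-0.94), Ptafr (the platelet-activating factor receptor) at 9965 and 8294 units (-0.26), and Adora2a at 132.5 and 104 units (-0.28). Adenosine receptors therefore differed in sign within the list, with Adora2b at 0.31.

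Chemokine receptors lay at both ends. Ccr1, a receptor for CCL3 and CCL5, was listed at 3227 and 8886 units (1.45). Ccr2, the receptor for CCL2, had 581.5 and 995 units (0.75). Cx3cr1, the fractalkine receptor, was listed at 237.5 and 106 units (-0.99), and Ccrl2 at 2111 and 1327.5 units (-0.66). The 9 kept members had 2 past 2-fold and a median of -0.11, which became 0.13 with no filter on low signal and 0.31 with a filter at 134 units, so no direction is given for the family.

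Receptors for immunoglobulin and inhibitory receptors had a few very abundant members. Fcgr2b, the inhibitory receptor for IgG, was listed at 7139 and 22174 units (1.63). Of 8 Fc receptors and partners, 7 lay above 0 and 2 passed, beside 0.877% of all genes, the second being Fgl2. The activating receptors Fcgr1 (0.61), Fcgr3 (0.57) and Fcgr4 (0.64) had like ratios, all under 2-fold. Lilrb4, an inhibitory immunoglobulin-like receptor of myeloid cells, was listed at 59070.5 and 207753 units (1.81) in the knockout and at 42852 and 61912 units (0.53) in the wild type. Values above 20000 units are coarse in this table: several genes share the same number, and the top value of 362618 units was held by 7 genes in the knockout under mock. The same limit holds for Spp1 (osteopontin), at 137379 and 362618 units (1.40). Its IL-10 value is that shared top value.

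Lilrb4 was the 1 inhibitory or paired receptor of 21 kept that passed 2-fold, and the median was 0.06. Gp49a, a close relative of Lilrb4 with which reads could be split, was listed at 27189 and 38632 units (0.51), Cd300lf at 2088.5 and 3173 units (0.60), and Cd300a at 5965 and 4878.5 units (-0.29). Cd244 was the only one of 9 SLAM family genes past 2-fold, and 6 of the 9 lay below 0. Its ligand Cd48 was listed at 4003 and 3114 units (-0.36), and Sh2d1b1 (EAT-2, an adaptor for SLAM receptors) at 327 and 185 units (-0.74).

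In the TNF family, 2 of 16 kept genes passed, beside 0.877% of all genes. They were Tnfsf14 and Cd40, the latter a costimulatory receptor listed at 180 and 417 units (1.10). Tnfsf9 (4-1BB ligand) had 58.5 and 137 units (0.94) and Tnfrsf1a 3854 and 6423.5 units (0.73). The receptors for LIGHT had small ratios, with Ltbr at 2717.5 and 3205 units (0.24) and Tnfrsf14 (HVEM) at 209.5 and 276 units (0.36). Tnf itself was listed at 507 and 654.5 units (0.35). Among 11 costimulatory and checkpoint genes the second past 2-fold was Cd274 (PD-L1), with 3358.5 and 7461.5 units (1.15). Cd86 had 438 and 632 units (0.50) and Cd80 143 and 147 units (0.03), while Cd28 was listed at 369.5 and 179 units (-0.95).

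Inflammasome genes held one of the highest ratios of all. Casp4 (caspase-11, the sensor of intracellular lipopolysaccharide; chr9:5308860-5328357) was listed at 450 units in the mock group and 2666 in the IL-10 group (2.50), and its neighbour Casp12 at 26 and 84 units (1.07). Mefv (pyrin, an inflammasome sensor) had 238 and 653 units (1.36). Il1b was listed at 14 and 61 units (1.11), in both groups among the weakly expressed genes. These were 4 of 19 kept genes, beside 0.877% of all genes past 2-fold. Casp1 came next at 2209 and 4247 units (0.93). The other sensors and adaptors did not share the pattern: Nlrp3 had 257 and 243.5 units (-0.07), Nlrc4 185 and 145 units (-0.30), Aim2 796 and 700.5 units (-0.18), Pycard 1231.5 and 1188 units (-0.05) and Gsdmd 1187 and 1311 units (0.14).

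CC chemokines had a median of 0.53, beside 0.21 in the wild type, with 1 of 11 kept genes past 2-fold and 9 above 0. Gene by gene, the knockout ratio was the larger for 6 of the 11 and not for the other 5. The gene past 2-fold was Ccl4 (MIP-1 beta), listed at 285.5 and 800.5 units (1.41), while the related Ccl3 had 1036 and 1495 units (0.52). Ccl6 was listed at 19617 and 33041 units (0.75), Ccl7 at 169.5 and 285.5 units (0.67) and Ccl2 at 843 and 1162 units (0.45). Ccl22 lay at the other end with 62 and 42 units (-0.37). None of 9 CXC chemokines passed, with Cxcl16 highest at 3539 and 6751 units (0.93) and Cxcl5 lowest at 63 and 46 units (-0.30). Of the 17 inflammatory cytokine genes on the list, 9 were kept, and 8, among them Il6 and Il12b, were not analysed here.

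Genes inducible by interferon-gamma formed one of the most one-sided groups. Of 26 kept, 10 were at least 2-fold higher (38.5%, beside 0.877% of all genes), 25 lay above 0, and the median was 0.66 in the knockout and 0.32 in the wild type, where none passed 2-fold. The guanylate-binding proteins, large GTPases that attack vacuoles holding pathogens, led. Gbp5 (chr3:142159898-142185308) was listed at 26 units in the mock group and 237 in the IL-10 group (2.32), Gbp3 at 204 and 854 units (1.93) and Gbp7 at 289 and 855 units (1.48). Gbp6 had 114 and 314 units (1.28), Gbp2 831 and 2045.5 units (1.27) and Gbp9 94 and 212.5 units (0.99). All 6 listed Gbp genes thus lay near or past 2-fold, but their sequences are alike and reads could be split among them.

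The immunity-related GTPases, smaller relatives with a like role, followed. Ifi47 (chr11:48900541-48910474) was listed at 273 and 1299 units (2.15), Tgtp2 at 98.5 and 373 units (1.67), Iigp1 at 29.5 and 134 units (1.52) and Irgm1 at 1404 and 2898 units (1.03). Igtp had 356 and 613 units (0.74) and Irgm2 377 and 617.5 units (0.67), so 4 of the 6 passed. The wild-type ratios of these genes were 0.76 for Ifi47, 0.10 for Tgtp2, 0.07 for Iigp1, 0.49 for Irgm1, 0.30 for Igtp and 0.16 for Irgm2, each below the knockout ratio. Outside the GTPases, the only gene of this list past 2-fold was Cd274, with 3358.5 and 7461.5 units (1.15). Irf1 had 1272.5 and 2018.5 units (0.65), Tap1 1257.5 and 1874 units (0.57) and Cxcl10 51.5 and 72 units (0.34). Irf8 was the only member below 0, with 3326.5 and 3031 units (-0.13).

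Genes inducible by type I interferon were also shifted upward, but unevenly. Of 36 kept, 5 passed 2-fold, beside 0.877% of all genes, and 34 lay above 0, beside 5158 of 11400. The median was 0.48 in the knockout and 0.17 in the wild type. Ifit2, which blocks translation of viral RNA, was listed at 210 and 675 units (1.57) in the knockout and 70 and 72.5 units (0.04) in the wild type. Zbp1, a sensor of Z-form nucleic acid, had 384 and 1083 units (1.43), Rtp4 468 and 1274 units (1.39), Oas2 431.5 and 999.5 units (1.16) and Trim30a 2150.5 and 4563.5 units (1.08). Ifit1 (0.91), Isg15 (0.67) and Ifit3 (0.39) had smaller ratios. Several hallmark members were level or lower: Irf7 was listed at 2124 and 2517 units (0.24), Mx1 at 85 and 95.5 units (0.13), Rsad2 (viperin) at 1183 and 1184.5 units (0.00) and Usp18, which removes ISG15 and restrains the receptor, at 277 and 205 units (-0.39).

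The PYHIN genes, whose proteins sense DNA or act in the nucleus, and the Schlafen genes were tallied together. Of these, 6 of 15 passed, beside 0.877% of all genes, and 14 lay above 0, beside 5158 of 11400. The median was 0.67 in the knockout and 0.14 in the wild type, where none passed. The 5 PYHIN genes that passed were Mnda with 1028 and 2813.5 units (1.43), Pydc4 with 68.5 and 208 units (1.30), Ifi204 with 2777 and 6461 units (1.21), Ifi205 with 88.5 and 238.5 units (1.20) and Ifi203 with 993 and 2172.5 units (1.11). They are closely similar copies, and the rows of Mnda and Ifi203 lie within that of Mndal (0.88), so single values are uncertain. Slfn1 had 82 and 211.5 units (1.13), and the other 6 Schlafen genes on the list ranged from 0.08 to 0.39, with Slfn5 at 3854 and 5054.5 units (0.39). With a filter at 134 units the list's median was 0.39.

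None of the 4 kept interferon receptor chains passed 2-fold, and 3 of them lay below 0. Ifnb1 and Ifng were not analysed here. Ifnar1 was listed at 3517.5 and 3645.5 units (0.05), Ifnar2 at 6218 and 6031 units (-0.04), Ifngr2 at 6661.5 and 6365 units (-0.07) and Ifngr1 at 3330 and 2512 units (-0.40). None of 8 kept IRF genes passed, with Irf1 highest (0.65) and Irf5 lowest at 6656.5 and 5989 units (-0.15). Over all 11400 kept genes, 5158 lay above 0 and the median was -0.02. Over both interferon lists together, 15 of 62 kept genes passed 2-fold, beside 0.877% of all genes, 59 lay above 0 and the median was 0.52. These lists were compiled with earlier results of these data known, so they are no independent evidence of a direction.

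Few antigen presentation genes passed 2-fold. Of 23 kept class I genes, 1 passed: Nlrc5, the transactivator of class I genes, listed at 446 and 1187.5 units (1.36). Its targets had small ratios, with H2-K1 at 22436 and 25040 units (0.16), H2-D1 at 46913 and 50734 units (0.11) and B2m at 60393 units in both groups. Psmb9, an immunoproteasome subunit, has 2 rows in the table: the abundant one was listed at 580.5 and 646 units (0.15) and the weak one at 77.5 and 248 units (1.40). None of 9 class II genes passed, and Ciita, their transactivator, had 113.5 and 161.5 units (0.42). March1, a ubiquitin ligase that removes class II molecules and CD86 from the surface, was listed at 885 and 2350 units (1.38).

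Both arginases were higher. Arg1, the enzyme that splits arginine in alternatively activated macrophages, was listed at 1800.5 units in the mock group and 5080.5 in the IL-10 group (1.48), and in the wild type at 951 and 3187 units (1.72). Arg2, its mitochondrial form, had 32.5 and 197.5 units (1.92), though its row overlaps that of Vti1b on the opposite strand, and no source used here states whether reads were counted by strand. The other markers of alternative activation were mixed, with 12 of 19 above 0 and a median of 0.14. Tgm2 had 7039 and 13008 units (0.88), Mrc1 10581 and 14681 units (0.47) and Chi3l3 1482 and 1641 units (0.14), while Retnla was listed at 120 and 105 units (-0.16) and Pparg at 2636.5 and 1901 units (-0.47).

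Of the 100 higher genes, 43 were on none of the 43 lists. Dab2, an endocytic adaptor, was on the scavenger list and was listed at 3079 and 16014.5 units (2.37), a large absolute difference. Among the genes on no list, Nrg1 (neuregulin, a ligand of ERBB receptors) had 5.5 and 151 units (2.46), Slc28a2 (a purine nucleoside transporter) 1446.5 and 7402 units (2.33) and Gcnt2 (an enzyme that branches glycans) 465 and 2321 units (2.26). Signalling enzymes were among them. Lck, a kinase best known from T cells, had 10 and 128 units (2.08), Sphk1, which makes sphingosine 1-phosphate, 497 and 1875.5 units (1.86), and Fgr, a myeloid Src kinase, 1941 and 4095 units (1.07). The other listed T and NK cell marker, Cd5, was under the filter, at 31 and 28 units.

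Metabolic enzymes and transporters were also among the genes on no list. Cd38 (which consumes NAD) was listed at 254.5 and 939.5 units (1.78) and Gda (guanine deaminase) at 1680.5 and 5397.5 units (1.67). Irg1, which makes itaconate, had 478 and 1114.5 units (1.18). Transporters included Slc39a14 (zinc and iron) at 492.5 and 1265 units (1.31), Slc16a1 (lactate) at 342 and 887.5 units (1.31) and Aqp9 at 44 and 131.5 units (1.16). Mt2, a metallothionein that binds zinc, had 454 and 1302 units (1.47).

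Secreted and adhesion proteins were Tgfbi at 2767.5 and 9006 units (1.69), Olfm1 at 359 and 1209 units (1.68), Selp (P-selectin) at 39 and 212.5 units (1.86) and Sema6b at 388 and 1186.5 units (1.55). Lrg1, a secreted acute phase protein, had 70 and 382 units (2.08) and lies next to Sema6b. Tfec, a transcription factor of the MiT family, was listed at 392.5 and 1505.5 units (1.87), whereas its relative Mitf had 2133 and 2353 units (0.14). Kdr, a VEGF receptor used here as an endothelial marker, had 504 and 1156 units (1.16). Other endothelial markers were uneven, with Pecam1 at 22.5 and 23.5 units and Vwf at 1571 and 1218 units (-0.36). The 4 listed endothelial markers summed to 2116 units in the mock group and 2420.5 in the IL-10 group. G530011O06Rik, at 589 and 2075.5 units (1.77), overlaps Mid1 on the opposite strand, and Mid1 was listed at 580.5 and 887 units.

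Few genes were lower by a wide margin. Kcnj2, an inwardly rectifying potassium channel (chr11:110927478-110938135), was listed at 1132 units in the mock group and 394 in the IL-10 group (-1.46), and in the wild type at 1313.5 and 554.5 units (-1.21). Zhx2, the second gene past the limit, was listed at 49 and 1 units (-1.45), but an unnamed row on the same strand shares its start (chr15:57527284-57594277 inside chr15:57527284-57652665) and was listed at 55 and 116 units. Together the 2 rows held 104 units in the mock group and 117 in the IL-10 group (0.14), so the value for Zhx2 alone is uncertain and the locus as a whole was not lower.

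Just outside the limit lay Rnf144b, a ubiquitin ligase, with 1609.5 and 792 units (-0.999), then Cx3cr1 and Kctd12b, the latter with 554 and 266.5 units (-0.99). Mmp12, macrophage elastase, was listed at 362618 and 183644 units (-0.98), from the shared top value into the coarse range. Below these came Cd28 and Gpr183, given above, Abcd2 (a peroxisomal fatty acid transporter) with 545.5 and 273 units (-0.93), BC031353 with 462 and 237 units (-0.89), Naip1 (an inflammasome receptor for bacterial proteins) with 236.5 and 116.5 units (-0.88) and P2ry1 (an ADP receptor) with 288.5 and 145 units (-0.88). P2ry1 and P2ry13 bind the same nucleotide and lay at opposite ends of the ranking. Of the 92 genes at least 1.5-fold lower in the knockout, 85 also had a ratio below 0 in the wild type. Over all 11400 kept genes the wild-type ratio lay below 0 for 5642. Of the 92, 27 were also at least 1.5-fold lower in the wild type. These 27 were 29.3% of the knockout's 92 and 57.4% of the wild type's 47 (0.412% of all genes).

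Of the 43 lists, 18 held no gene past 2-fold in either direction. Sterol and fatty acid synthesis had the most one-sided small ratios, with 20 of 22 genes below 0 and a median of -0.08, and Dhcr7, the last enzyme of cholesterol synthesis, lowest at 985 and 685.5 units (-0.51). Oxidative phosphorylation subunits had 18 of 26 below 0 and a median of -0.08, beside 0.05 in the wild type, with Atp5l lowest at 4359 and 2522 units (-0.78). Cell cycle genes (median -0.03), chaperones and endoplasmic reticulum stress genes (0.01), complement (0.06), glycolysis (0.04) and Toll-like receptors (0.07) were centred near 0. Within them, Myd88, the adaptor of Toll-like receptors, was listed at 1520.5 and 2965 units (0.95), Tlr4 at 1364 and 2272 units (0.73) and Dusp6, a MAP kinase phosphatase, at 642.5 and 413 units (-0.61). The median of all genes was -0.02, and 6134 of the 11400 lay below 0.

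**Figure D2:**
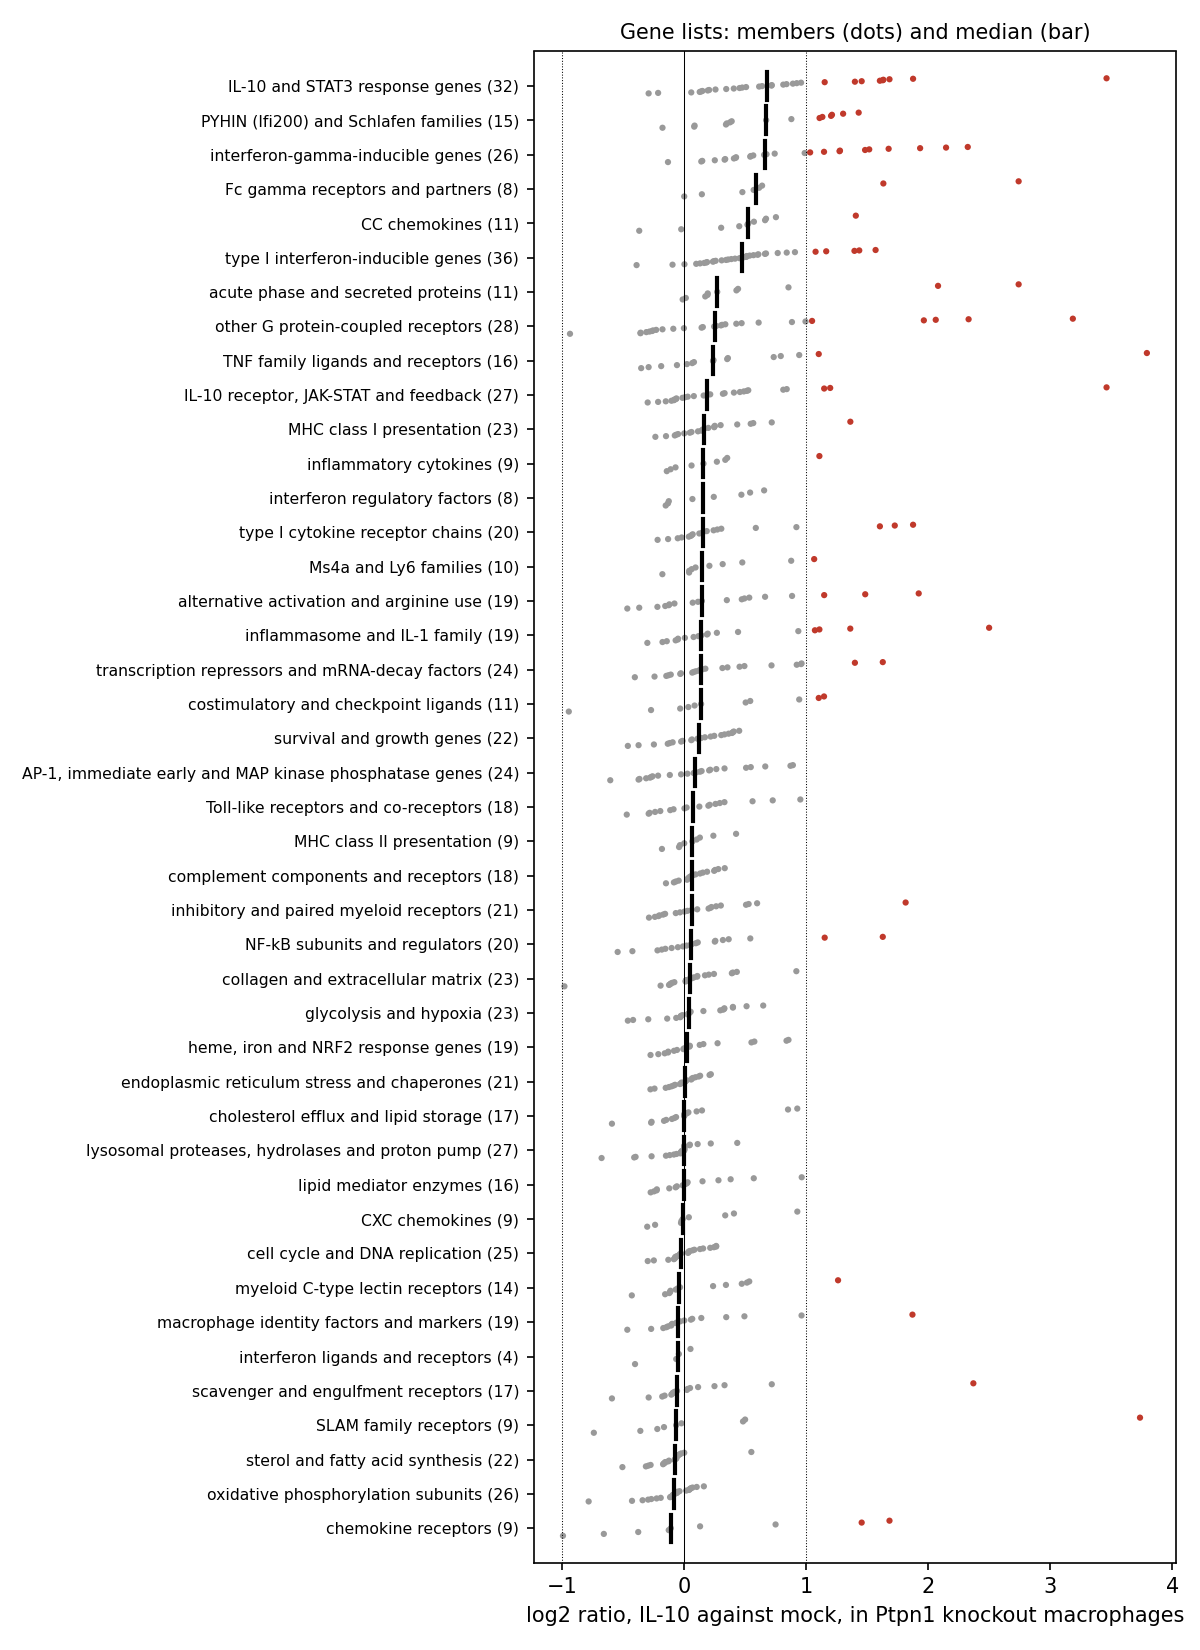
Log2 ratio of IL-10 to mock in the Ptpn1 knockout (x axis) for the kept members of each gene list (dots, red where at least 2-fold higher) with the list's median (black bar), the number kept in brackets and dotted lines at 2-fold. The IL-10 and STAT3 response genes (0.68), the PYHIN and Schlafen genes (0.67) and the interferon-gamma-inducible genes (0.66) have the highest medians, and no dot lies past the left dotted line.

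The wild-type response was set beside that of the knockout gene by gene. The 2 contrasts share no column, since each genotype has its own mock group. In the wild type 53 genes (0.465%) were at least 2-fold higher and 2 (0.0175%) lower. The genotypes shared 49 higher genes, 92.5% of the wild-type list and 49.0% of the knockout list. The 4 higher in the wild type only were Hrh2, Ms4a6d, 0610040J01Rik and Sdcbp, and their knockout ratios of 0.99, 0.88, 0.79 and 0.59 were all above 0. The wild-type list was thus nearly contained in the knockout list.

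The 51 genes that passed only in the knockout were not all silent in the wild type. Over the 100 knockout genes the wild-type ratio had a median of 0.99, beside 1.43 in the knockout, and ranged from -0.05 to 3.78. It was above 0 for 99, beside 5659 of all 11400 kept genes, and under 0.5 for 15. In 91 of the 100 the knockout ratio was the larger, a direction that partly follows from choosing genes by the knockout ratio. The 9 exceptions were Cd244, Lrg1, BC055004, Rab3il1, Cd38, Gda, Arg1, Cd209a and Plek. Arg1 had the second largest of these gaps, at 1.48 against 1.72, after Lrg1 at 2.08 against 2.41.

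Among genes with at least 134 units in 1 or more of the 4 groups, 10 of the 12 widest gaps in favour of the knockout belonged to interferon-inducible, PYHIN or Schlafen genes. Tgtp2, Iigp1, Gbp5, Pydc4, Ifi205, Slfn1 and Rps2-ps13 reached that limit only in the knockout IL-10 group. The limit thus itself favours weak genes with such gaps, and the count only describes which genes they were. Of the 62 kept genes on either interferon list, 57 had a larger ratio in the knockout. Their medians were 0.52 in the knockout and 0.19 in the wild type, beside -0.02 and 0.00 over all kept genes. The share of all genes with a larger knockout ratio was not computed. The gap was 1.57 for Tgtp2, 1.53 for Ifit2, 1.44 for Iigp1, 1.40 for Gbp5 and 1.39 for Ifi47, in log2 units. Tgtp2 was listed at 40 and 45 units in the wild type and 98.5 and 373 units in the knockout. Ifit2 and Iigp1 were likewise level in the wild type. Lilrb4 (1.28), Pydc4 (1.23), Rtp4 (1.19), Ifi205 (1.13), Rps2-ps13 (1.11), Slfn1 (0.97) and Gbp3 (0.97) completed these 12. Niacr1, with 128.5 units in its highest group, lay just under that signal limit and had a gap of 1.37. Rps2-ps13 is a processed pseudogene of a ribosomal protein gene, and its reads can come from the parent gene. With 1 value per group the gaps cannot be tested.

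For many of these genes the mock value already differed by genotype. Under mock, 82 of the 100 higher genes were listed higher in the knockout than in the wild type, beside 53.5% of all kept genes. Among the 16 whose wild-type ratio was under 1.5-fold the count was 14. Rtp4 was listed at 468 units under mock in the knockout and 113.5 in the wild type, Ly6a (Sca-1) at 107.5 and 13.5 units, and Ifit2 at 210 and 70 units. The genotype difference before IL-10 therefore ran the same way as the difference in response for these 3. Marker genes of other cells also differed by genotype under mock: the monocyte markers summed to 991 units in the wild type and 2249.5 in the knockout, the neutrophil markers to 91 and 181 units, and the mesothelial and fibroblast markers to 34949 and 23735.5 units. Most of the monocyte difference was Chi3l3 (574 and 1482 units), also listed here under alternative activation, though Ccr2 (370.5 and 581.5) and Ly6c2 (15 and 100) differed the same way. Most of the neutrophil difference was Retnlg (29.5 and 109.5 units), while S100a8 had 53 and 56.5 units. The part of these marker genes in the genotype differences was not tested.

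**Figure D3:**
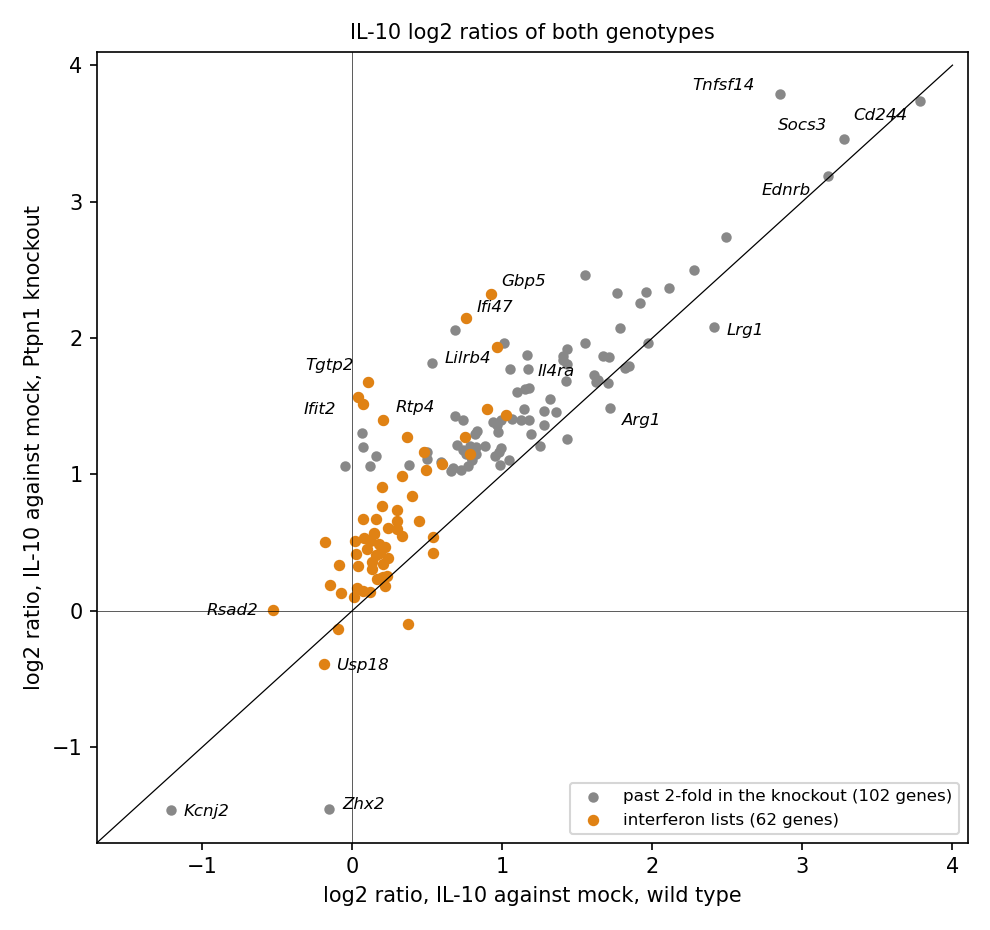
Log2 ratio of IL-10 to mock in the wild type (x axis) and in the Ptpn1 knockout (y axis) for the 102 genes past 2-fold in the knockout (grey) and the 62 kept genes of the interferon lists (orange), with the line of equal ratios. Cd244, Socs3 and Ednrb lie near the line, whereas Tgtp2, Ifit2, Gbp5 and Ifi47 lie well above it, with gaps of 1.39 to 1.57.

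Gaps in the other direction were narrower. At the same signal limit, and outside pseudogenes, the widest was that of Atp5l, a subunit of ATP synthase, at -0.78 in the knockout and 0.26 in the wild type. Ubb, a ubiquitin gene, was listed at 55131 and 31920 units in the knockout (-0.79) and at 26635 and 31176.5 units in the wild type (0.23). Cst3 (cystatin C) had -0.64 and 0.11, and Atp6v0d2, a proton pump subunit, -0.68 and 0.00. Sdcbp, Ctsz, Eef1a1, Ubb, Cst3 and Atp6v0d2 all exceed 20000 units, where the table's steps are wide. Across 11222 genes with a known transcript length the ratio went with length more in the wild type (Spearman's rank correlation -0.36) than in the knockout (-0.13). These describe single values per group, and their part in the gaps was not tested.

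**Figure D4:**
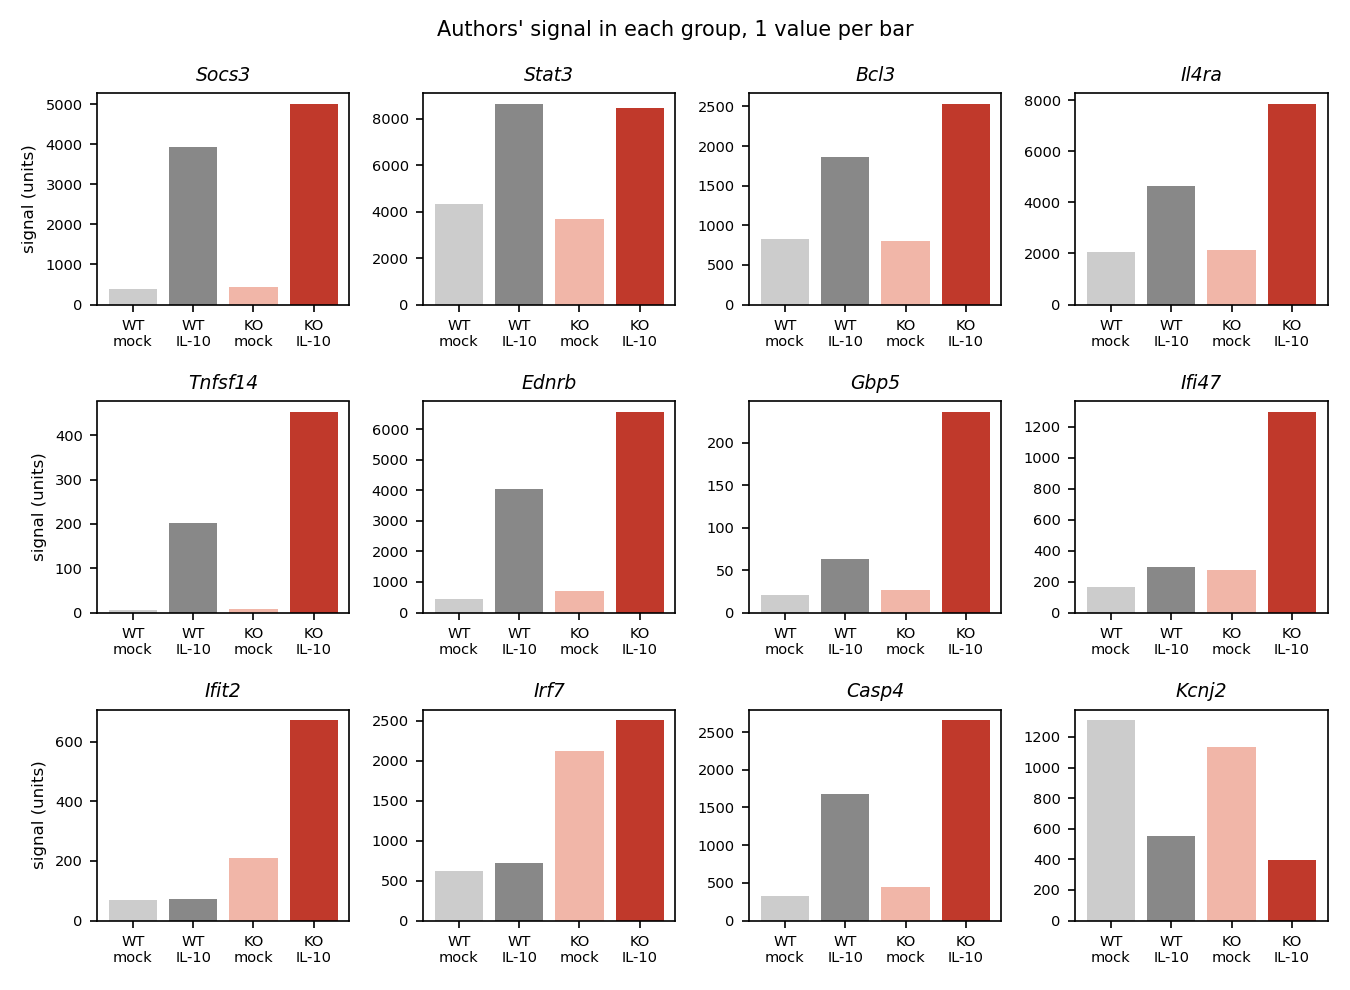
Authors' signal in each of the 4 groups for 12 genes, 1 value per bar and each panel on its own axis from 0. Socs3, Tnfsf14 and Ednrb are higher with IL-10 in both genotypes, Ifit2 stands at 210 and 675 units in the knockout and at 70 and 72.5 units in the wild type, and Kcnj2 is lower with IL-10 in both.

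Higher genes lay close together in several places (mm9). With starts within 500 kb of each other, 34 of the 100 fell into 14 groups, 3 of them with at least 3 genes. The largest was the PYHIN locus at chr1:175522088-175961886, where 5 of 8 kept genes passed and the median of the 8 was 1.16. At chr3:142159898-142300972, all 4 kept genes, Gbp5, Gbp7, Gbp3 and Gbp2, passed, with a median of 1.71. At chr11:48679620-48910474 the GTPases Irgm1, Tgtp2 and Ifi47 passed among 6 kept genes.

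Pairs included receptors and enzymes of like function. Il4ra and Il21r adjoin at chr7:132695796-132777084, and Casp4 and Casp12 at chr9:5308860-5358823. Other pairs joined genes with no evident relation, such as Tha1 and Socs3 at chr11:117729266-117830500, where Tha1 was listed at 185 and 438 units (1.13), and Mt2 and Nlrc5 on chromosome 8. Since gene families often lie in tandem, such grouping is a description of position only.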

How the data were processed

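RNA sequencing of 8 samples in 4 groups of 2 was analysed from 1 deposited table of 11996 genes, which gives 1 value per gene and group. The authors' deposited values are a normalized expression signal, named CPM in the table, although each column sums to 26705598. Many values end in 0.5. Per the submitters' processing notes, RSEM, Bowtie and mm9 were used, with no role or version stated. No source used here gives the normalization, any filter, strandedness or the annotation, and the depth is unknown.

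Per gene, log2((IL-10 + 26.7) / (mock + 26.7)) was computed for genes with a mean of at least 26.7 units. With no value per sample, no test, error or adjusted p-value was possible, so calls are 2-fold limits. Transcript lengths came from GENCODE M21, matched by gene identifier, and promoters from RefSeq GRCm38.p6, matched by symbol. Named genes were those of the IL-10 signalling list, those past 2-fold or lowest with at least 134 units, the 4 with the largest ratio in each list and those needed for its range, the 12 widest genotype gaps each way and those nearest the limits. Others were named after their values were seen. The members and lists were chosen with earlier results of these data known. Some genes counted in the lists are not reported here by name.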

Additional observations from a re-analysis of the deposited data

How the results depend on the processing

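The 100 higher genes became 117 with 0.25 ppm of a column added in place of 1 ppm, 73 with 4 added, 102 with no filter, 73 with a filter at 5 ppm, 97 without genes above 20000 units, 102 after centring on the median and 101 with the length trend subtracted. The first of these held all 100 and the last 98 of them. The count of lower genes was 11 with 0.25 added, 1 with 4 added and 1 with the filter at 5 ppm, against 2, and 2 under the other settings. The 49 genes higher in both genotypes ranged from 35 to 63. No gene past 2-fold changed sign. Sizes depend on the added constant: 36 of 138 named values moved with 0.25 added and 76 with 4 added. Of the list medians, those of chemokine receptors (0.13 with no filter, 0.31 with the filter) and of CXC chemokines (-0.01, and 0.01 with the length trend subtracted) changed sign. Leaving out each sample was not run, since the table has no value per sample. No paired analysis was possible because the columns hold 1 value per group. Unknown depth limits weak genes, and shared values limit those above 20000 units.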

Other observations

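Genes were also grouped by the letters that begin their symbol, for the 275 stems with at least 6 kept genes, with no choice by function. The guanylate-binding stem Gbp had the highest median log2 ratio in the knockout, 1.38, with 5 of 6 genes past 2-fold, followed by Ifi at 0.71 with 8 of 8 above 0. After them came Ccl at 0.52, Casp at 0.42, Slfn at 0.36 and Oas at 0.31. The wild-type medians of these stems were 0.82, 0.25, 0.17, 0.26, 0.10 and 0.12.

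At the other end stood Dock, guanine nucleotide exchange factors for Rac and Cdc42, with a median of -0.19 and all 11 genes below 0 in the knockout. The wild-type median was -0.20. Bag co-chaperones (-0.19, 1 of 6 above 0), Stard lipid-transfer proteins (-0.18, 1 of 10 above 0), the Mtap stem (-0.18, 2 of 8 above 0) and Rgs proteins (-0.17, 4 of 9 above 0) followed, with wild-type medians of -0.04, 0.06, -0.07 and 0.01. The unconventional myosins (Myo) had a median of -0.15 over 15 genes and Arhgap proteins one of -0.14 over 27 genes, each with a like value in the wild type (-0.15 and -0.11). All these medians are small, and no single Dock, Bag or Stard gene reached 2-fold.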
